A study of Mus musculus with 2 samples.

Results

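Parp9, Parp10, Parp12, Parp14, Dtx3l and Parp1 were followed across single cells of mouse melanoma tumors. The 6 genes were chosen by symbol from the 32285 genes of the matrix. The first 5 are known interferon-inducible genes, and Parp1 was added as a member of the PARP family that interferon is not known to induce. The cells came from 1 pool of 18 tumors of NMM, an NRAS-mutated mouse melanoma line, grown in Rag-/- mice, which make no T or B cells of their own. The labels list 6 tumors for each of 3 conditions, written Mix PBS, Mix + T and Ag-GAS + T. The design text says that tumors were exposed in vivo to T cells or to PBS, the control, and the title of the series concerns cytokines made by CD8+ T cells. Cells of every tumor carried hashtag antibodies, and CFP+ cells, which the labels call bystander tumor cells, were sorted after pooling. All conditions share the NMM line, the Rag-/- host, the digestion and the sort.

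No label ties a hashtag to a condition. The 3 conditions were therefore not compared, the pool counts as 1 sample, and no p-value is given. All values below describe cells and hashtag pairs of unstated condition, and their intervals cover counting error only.

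PARP enzymes take ADP-ribose from NAD+ and attach it to proteins, either as single units or as chains. PARP9 binds DTX3L, a ubiquitin ligase of the Deltex family, and the pair acts on histones and on proteins of the antiviral response. PARP14 attaches single ADP-ribose units and carries macrodomains, folds that bind or remove ADP-ribose. PARP10 also attaches single units, and PARP12 carries zinc fingers of the type that bind RNA and is linked to the Golgi and to antiviral defence. PARP1 is the abundant nuclear enzyme that builds ADP-ribose chains at DNA breaks. Interferon-gamma acts on such genes through the GAS element in DNA and type I interferons mainly through the ISRE element.

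In GENCODE M21 (GRCm38), 3 of the 6 genes lie side by side on chromosome 16. Parp14 spans chr16:35832874-35871544 on the minus strand and Dtx3l spans chr16:35926511-35939151 on the minus strand. Parp9 spans chr16:35938470-35972605 on the plus strand. Dtx3l and Parp9 are transcribed away from each other and their annotated 5' ends overlap by 682 bases. Parp14 lies 54966 bases from Dtx3l with no protein-coding gene between them. The other 3 genes stand apart. Parp10 spans chr15:76231174-76243441 on the minus strand. Its range overlaps that of Plec, a cytoskeletal linker on the same strand, so reads in the overlap could be shared. Parp12 spans chr6:39086410-39118349 on the minus strand and Parp1 spans chr1:180568924-180601254 on the plus strand.

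The RefSeq promoter table (GRCm38.p6) held 3 of the 6 genes, Dtx3l, Parp12 and Parp1. Bases upstream of their starts are shown because Dtx3l and Parp12 moved with the interferon genes in the cells below and Parp1 did not. Dtx3l is given at chr16:35939207-35939277 (minus strand), the far end of its upstream window, since the bases nearer the start lie in annotated Parp9 and Dtx3l 5' UTRs. Parp12 is given at chr6:39118350-39118599 (minus strand) and Parp1 at chr1:180568641-180568890 (plus strand). Each is read 5' to 3' on the gene's own strand, and capitals mark CpG dinucleotides.
Dtx3l: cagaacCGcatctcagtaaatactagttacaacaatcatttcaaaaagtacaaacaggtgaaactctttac
Parp12: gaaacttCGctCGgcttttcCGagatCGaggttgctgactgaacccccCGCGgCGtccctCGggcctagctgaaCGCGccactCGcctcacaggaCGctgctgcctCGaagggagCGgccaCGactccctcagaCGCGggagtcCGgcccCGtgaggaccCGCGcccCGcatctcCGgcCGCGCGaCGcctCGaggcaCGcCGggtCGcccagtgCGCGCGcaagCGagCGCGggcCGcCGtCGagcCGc
Parp1: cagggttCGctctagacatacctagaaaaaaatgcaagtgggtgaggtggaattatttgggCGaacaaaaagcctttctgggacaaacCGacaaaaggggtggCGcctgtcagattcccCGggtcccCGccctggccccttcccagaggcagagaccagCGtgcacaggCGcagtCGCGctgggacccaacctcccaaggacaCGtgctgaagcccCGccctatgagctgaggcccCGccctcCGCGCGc
The printed stretches hold 1 CpG in 71 bases for Dtx3l, 41 in 250 bases for Parp12 and 16 in 250 bases for Parp1. Over the whole 300-base windows, from 250 bases before to 50 bases after the start, the counts were 17 CpG for Dtx3l, 46 for Parp12 and 20 for Parp1. The median over the 32851 promoters of the table was 7. GC content was 54.3% for Dtx3l, 73.7% for Parp12 and 62.0% for Parp1, against a median of 52.7%. The GAS core TTCNNNGAA and the ISRE core, which is GAAA, 2 bases of any kind and GAAA, were searched on both strands of the 3 windows, and neither was found. Of all promoters in the table, 8.3% hold the first motif and 3.44% the second. The absence says only that these letters are not in these windows.

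Barcodes were read as cells when they had at least 5000 gene UMIs (molecular barcodes that count each captured transcript once) and at most 15% of them from mitochondrial genes. This rule was met by 1657 of 20917 barcodes. A further step left out 196 barcodes with 3 or more hashtags as doublets, while doublets within 1 tumor cannot be seen by tags. The remaining 1461 cells had a median of 44573 UMIs (range 5049 to 176379). Of these, 1359 carried 1 of 18 hashtag pairs, with 19 to 206 cells each, and each pair is taken to be 1 tumor, which is an inference from the tags. The labelled cell type was only weakly visible: 10 melanoma markers summed to 85.9 CPM (UMIs scaled to 1000000 gene UMIs), 48.5 of them from Slc24a5, an ion exchanger of the pigment granule, and 2 markers were at 0. Markers of T cells (1.25 CPM), NK cells (0.0293 CPM), B cells (0.146 CPM), macrophages (5.07 CPM), dendritic cells (1.46 CPM) and neutrophils (2.59 CPM) were near 0, and 3 of 7 T cell, 2 of 4 NK cell and 3 of 4 B cell markers had no UMI. Macrophage markers ranged from 0 to 52.1 CPM over the pairs. Fibroblast markers summed to 886 CPM, of which Col3a1, a collagen, gave 747, and ranged from 482 to 2110 CPM over the pairs. Endothelial markers summed to 36.2 CPM, 35.8 of them from Cdh5, and ranged from 19.2 to 62.1 CPM over the pairs. The part of fibroblast and endothelial genes in the results below was not tested.

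All 6 genes were read in most cells. Parp9 stood at 110 CPM (exact 95% Poisson interval 107 to 112), with at least 1 UMI in 89.5% of the 1461 cells. Its partner Dtx3l stood at 81.6 CPM (79.5 to 83.8), with a UMI in 85.1% of cells. Parp14 stood at 152 CPM (149 to 155) and was seen in 86.9% of cells. These levels are per gene and are not scaled for how well each transcript is captured, so they set no order between genes.

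Parp10 was the sparsest of the 6, at 29.97 CPM (28.7 to 31.3) and with a UMI in 62.0% of cells. Parp12 stood at 101 CPM (98.7 to 103) and was seen in 87.9% of cells. Parp1 stood at 66.5 CPM (64.6 to 68.5) and was seen in 79.7% of cells. In the 18473 barcodes under 800 UMIs, which carry RNA from outside cells, the share with a UMI was 5.28% for Parp9, 4.42% for Dtx3l and 5.74% for Parp14. There it was 1.68% for Parp10, 5.97% for Parp12 and 2.52% for Parp1. Those barcodes had a median of 569 UMIs, against 44573 in cells, so the 2 sets of shares are not at one depth. On the CPM scale, that outside RNA held Dtx3l at 80.7 CPM, Parp10 at 29.9 CPM and Parp12 at 108 CPM, which is 0.989, 0.997 and 1.07 times the level in cells. Parp9 stood at 94.8 CPM there, 0.862 times its level in cells. Parp14 at 106 CPM and Parp1 at 45.5 CPM were 0.696 and 0.684 times their level in cells.

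Parp14 and Parp10 stood out in the 199 barcodes that were set aside for more than 15% mitochondrial UMIs (median 7106 UMIs). Parp14 reached 323 CPM (295 to 352) there, 2.13 times its level in cells, and Parp10 reached 65.1 CPM (53.1 to 79.0), 2.17 times. Parp12 at 95.7 CPM and Dtx3l at 83.6 CPM were 0.947 and 1.02 times their level in cells. Parp9 was lower, at 74.6 CPM (61.7 to 89.4), and so was Parp1, at 44.0 CPM (34.2 to 55.7). The interferon-gamma list stood at 0.885 times and the type I list at 0.722 times its level in cells in those barcodes. These barcodes are shallower than most cells, and levels also moved with depth among cells, as given below. The share of all genes that rise as much in them was not read. What lies behind the high Parp14 and Parp10 values was not tested.

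The level of each gene was then read in the 18 hashtag pairs. Parp9 ranged from 60.4 CPM (45.9 to 78.1) in HTO1-HTO3, over a median of 101 CPM, to 139 CPM (129 to 149) in HTO3-HTO9. Dtx3l ranged from 30.2 CPM (20.2 to 43.4) in HTO1-HTO3, over a median of 65.7 CPM, to 112 CPM (104 to 121) in HTO7-HTO10. The lowest pair was the same for both partners, and so were the 8 highest pairs. For both genes the intervals at the step below those 8 pairs overlapped.

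Parp14 had the widest spread of the 6, from 49.98 CPM (36.9 to 66.3) in HTO1-HTO3, over a median of 123 CPM, to 237 CPM (222 to 252) in HTO1-HTO9. Parp10 ranged from 13.3 CPM (7.89 to 21.0) in HTO2-HTO5, over 27.5 CPM, to 47.3 CPM (33.7 to 64.7) in HTO4-HTO8. Parp12 ranged from 50.3 CPM (43.6 to 57.7) in HTO3-HTO5, over 92.2 CPM, to 135 CPM (126 to 145) in HTO3-HTO9. For these genes too the ends of the range were far apart beyond counting error.

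Parp1 spread least, from 47.3 CPM (33.7 to 64.7) in HTO4-HTO8, over 62.7 CPM, to 83.1 CPM (71.5 to 96.0) in HTO4-HTO9. The order of neighbouring pairs was not resolved for Parp9, Dtx3l, Parp10, Parp12 or Parp1, since the intervals of each pair and the next in the order overlapped at all 17 steps. For Parp14, 2 steps had intervals apart, between HTO3-HTO9 and HTO8-HTO10 (213 against 187 CPM) and between HTO6-HTO9 and HTO1-HTO3 (79.8 against 49.98 CPM). The 8 pairs with the highest Parp14 were also the 8 highest for Parp9, for Dtx3l and for both interferon lists, and 7 of them were among the 8 highest for Parp10 and 7 for Parp12. For Parp1 the number was 2. Of the 6 pairs with the highest Parp14, 6 were among the 6 highest for Dtx3l and for each interferon list. The number was 5 for Parp9, 5 for Parp12, 4 for Parp10 and 1 for Parp1. How many pairs unrelated genes would share was not read. For Parp14 the step below its 8 highest pairs was not resolved.

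**Figure D1:**
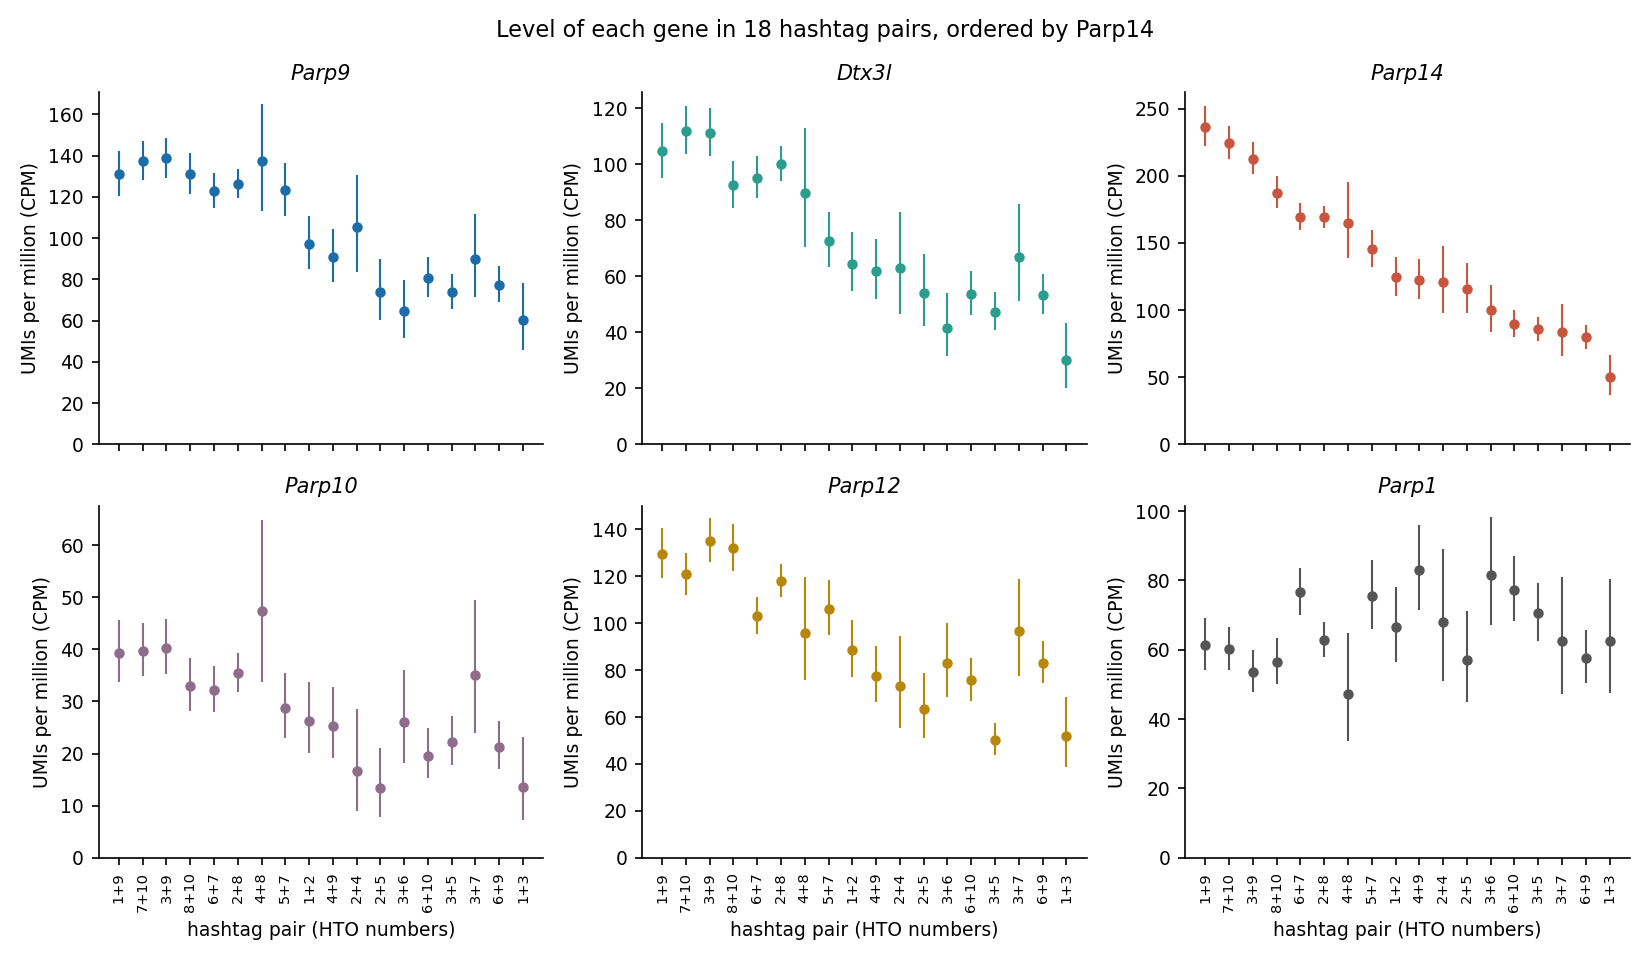
Level in CPM (y axis, from 0) of each of the 6 genes in the 18 hashtag pairs (x axis, in the order of Parp14), with exact 95% Poisson intervals as bars. Parp9, Dtx3l, Parp10 and Parp12 are generally higher at the left, where Parp14 is high, while Parp1 stays between 47.3 and 83.1 CPM in no such order.

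The 2 interferon lists differed in their spread over the pairs. The interferon-gamma list (22 genes such as Gbp2, Igtp and Cxcl9) spanned 1090 to 7750 CPM over the pairs, with its largest step between HTO6-HTO7 at 5765 CPM and HTO4-HTO8 at 2405 CPM. The type I list (22 genes matched, such as Ifit1 and Isg15) spanned 2577 to 8618 CPM and stood at 6291 CPM in HTO6-HTO7 and 6182 CPM in HTO5-HTO7. HTO5-HTO7, with the interferon-gamma list at 2277 CPM, had Parp9 at 123 CPM (111 to 136), against 123 CPM (115 to 132) in HTO6-HTO7. Parp12 was likewise 106 CPM (94.98 to 119) and 103 CPM (95.6 to 111) in these pairs, with overlapping intervals.

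Dtx3l was lower in HTO5-HTO7, at 72.6 CPM (63.3 to 82.9), than in HTO6-HTO7, at 95.2 CPM (87.8 to 103), with intervals apart. Parp14 was 146 CPM (132 to 160) in HTO5-HTO7 and 170 CPM (160 to 180) in HTO6-HTO7, where the intervals just overlap. The smaller pair HTO4-HTO8 (23 cells, median 31918 UMIs), also low in the interferon-gamma list, held Dtx3l at 89.8 CPM (70.5 to 113) and Parp14 at 165 CPM (139 to 195), both overlapping HTO6-HTO7. Both intervals also overlapped those of HTO5-HTO7. HTO4-HTO8 therefore cannot say whether the lower Dtx3l of HTO5-HTO7 recurs. HTO4-HTO8 held Parp9 at 137 CPM (113 to 165) and Parp10 at its highest level of all pairs. These 3 pairs were chosen after their values were seen, and a difference between genes was not tested.

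Parp14 and Dtx3l, 2 of the 6 genes, differed at least 3-fold between the highest and the lowest pair after 5 CPM was added to both values. The same holds for 6.88% of the 11060 genes that were seen in 5% of cells or more, and for 5.57% of the 3481 of those whose level lay within the range of the 6 genes. The ratio was 4.40 for Parp14, 3.32 for Dtx3l, 2.86 for Parp10, 2.54 for Parp12, 2.20 for Parp9 and 1.68 for Parp1, with a median of 2.70, against a median of 1.80 over all genes. Just outside the limit lay Parp10. The count rested on HTO1-HTO3, the lowest pair, with 20 cells: without it no member reached 3-fold, with Parp14 at 2.85 and Dtx3l at 2.51. With the 10 pairs of at least 50 cells no member reached 3-fold either.

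To compare cells at one depth, each cell was thinned to 20000 UMIs, which left out 133 shallower cells, and pair means were subtracted in the 15 pairs with at least 20 such cells (1185 cells). Each interferon score was the mean over its list of log-scaled thinned counts, and none of the 6 genes is in a list. Within pairs, Parp14 had r = 0.536 with the interferon-gamma score, rank 39 from the top among 11060 genes. Parp9 had r = 0.464 (rank 61) and Dtx3l r = 0.450 (rank 70). Parp12 had r = 0.353 (rank 122) and Parp10 r = 0.352 (rank 124). Parp1 had r = -0.111 (rank 10246). Cells of a pair share a tumor and a library, so these values are a description without a p-value.

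With the interferon-gamma score, 5 of the 6 genes thus reached an r of 0.3, as did 1.37% of the 11060 genes and 1.95% of the 3481 genes within the level range of the members. The median r of all 6 genes was 0.402, and that of the 5 genes without Parp1 was 0.450, against -0.00183 over all genes. In single pairs, r was above 0 in 15 of 15 pairs for Parp9 (0.304 to 0.649), Dtx3l (0.302 to 0.612), Parp14 (0.292 to 0.731) and Parp10 (0.0434 to 0.815). For Parp12 it was above 0 in 14 pairs (-0.0167 to 0.767) and for Parp1 in 5 pairs (-0.350 to 0.174). Thinned to 10000 UMIs, Parp10 (r = 0.280) and Parp12 (r = 0.285) fell under 0.3 and the count was 3. Plec, which overlaps Parp10, had r = -0.0699.

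The same 5 genes reached 0.3 with the type I score, as did 1.42% of all genes and 2.21% of those within the level range. Parp14 had r = 0.559, Dtx3l r = 0.515, Parp9 r = 0.509, Parp10 r = 0.394 and Parp12 r = 0.391, while Parp1 had r = -0.131. The type I value was the higher of the 2 in 11 of 15 pairs for Parp9 and Dtx3l, in 10 for Parp12 and Parp14 and in 8 for Parp10. The 2 scores were themselves correlated across cells (r = 0.745). With the interferon-gamma score held fixed, the partial r with the type I score was 0.301 for Dtx3l, 0.283 for Parp14 and 0.277 for Parp9. It was 0.211 for Parp10 and 0.205 for Parp12. With the type I score held fixed, the partial r with the interferon-gamma score was 0.217 for Parp14, 0.148 for Parp9, 0.117 for Dtx3l, 0.101 for Parp12 and 0.0955 for Parp10. Whether the 2 partial values of a gene differ was not tested.

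**Figure D2:**
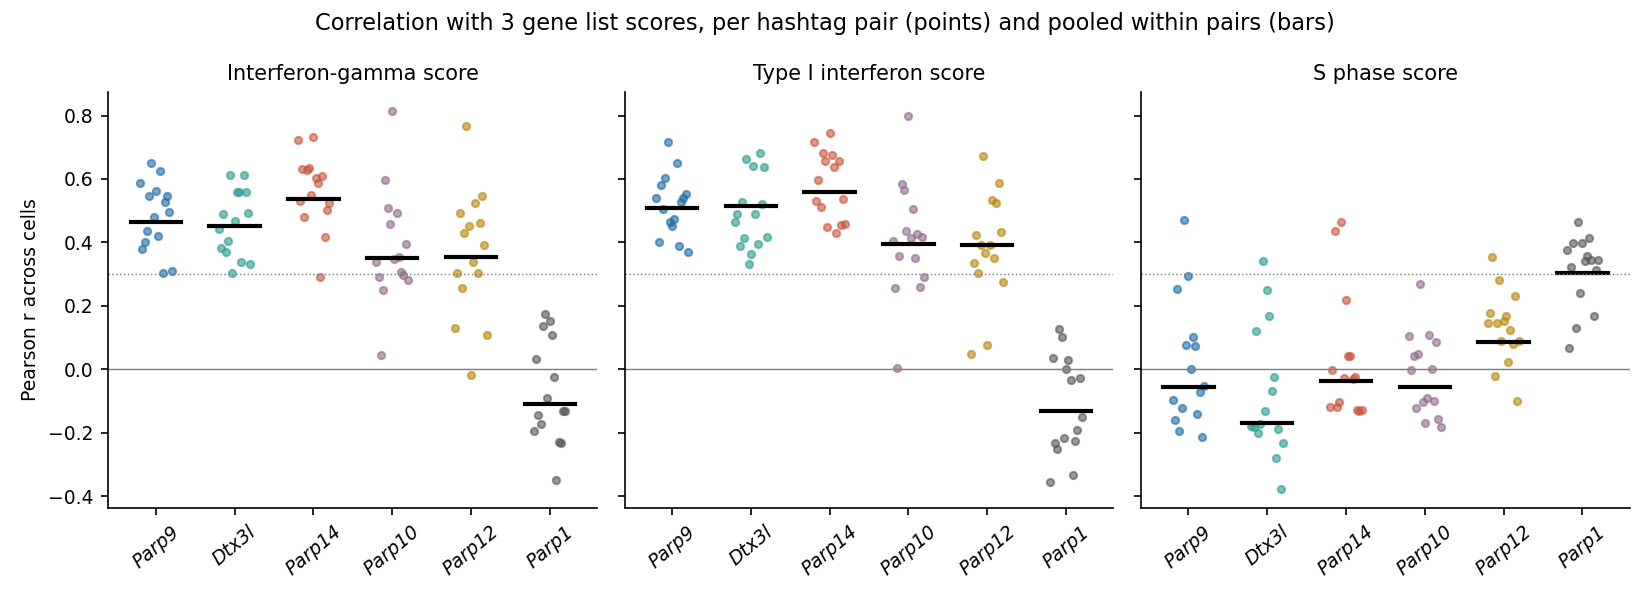
Pearson r across cells (y axis) of each of the 6 genes with the interferon-gamma, type I interferon and S phase scores, as 1 point for each of 15 hashtag pairs and a bar for the value pooled within pairs. The dotted line marks 0.3: bars of Parp9, Dtx3l, Parp14, Parp10 and Parp12 lie above it for both interferon scores, and that of Parp1 lies above it for the S phase score.

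Levels across 4 equal bins of the interferon-gamma score, with cells ranked within their pair, give the size of these relations. Parp14 went from 77.2 CPM in the lowest bin to 121, 161 and 290 CPM, a ratio of the highest to the lowest bin of 3.76 (exact 95% interval 3.39 to 4.17). Parp9 went from 62.3 to 93.9, 120 and 183 CPM, a ratio of 2.94 (2.61 to 3.31). Dtx3l went from 47.7 to 76.7, 83.9 and 151 CPM, a ratio of 3.16 (2.76 to 3.62). All 3 neighbours on chromosome 16 thus were higher in each bin than in the one below it.

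Parp10 went from 14.0 to 26.4, 36.0 and 56.4 CPM, a ratio of 4.04 (3.17 to 5.20). Parp12 had the smallest ratio of the 5, 2.28 (2.01 to 2.58), from 62.5 to 93.5, 116 and 142 CPM. For each of these 5 genes the highest bin was above the lowest in 15 of 15 pairs. Parp1 went the other way, from 72.1 to 54.9, 57.5 and 49.1 CPM, a ratio of 0.682 (0.585 to 0.793), and was higher in the top bin in 4 of 15 pairs. By bins of the type I score the ratios were 3.92 for Parp14, 3.24 for Parp9, 3.87 for Dtx3l, 4.78 for Parp10, 2.34 for Parp12 and 0.668 for Parp1.

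**Figure D3:**
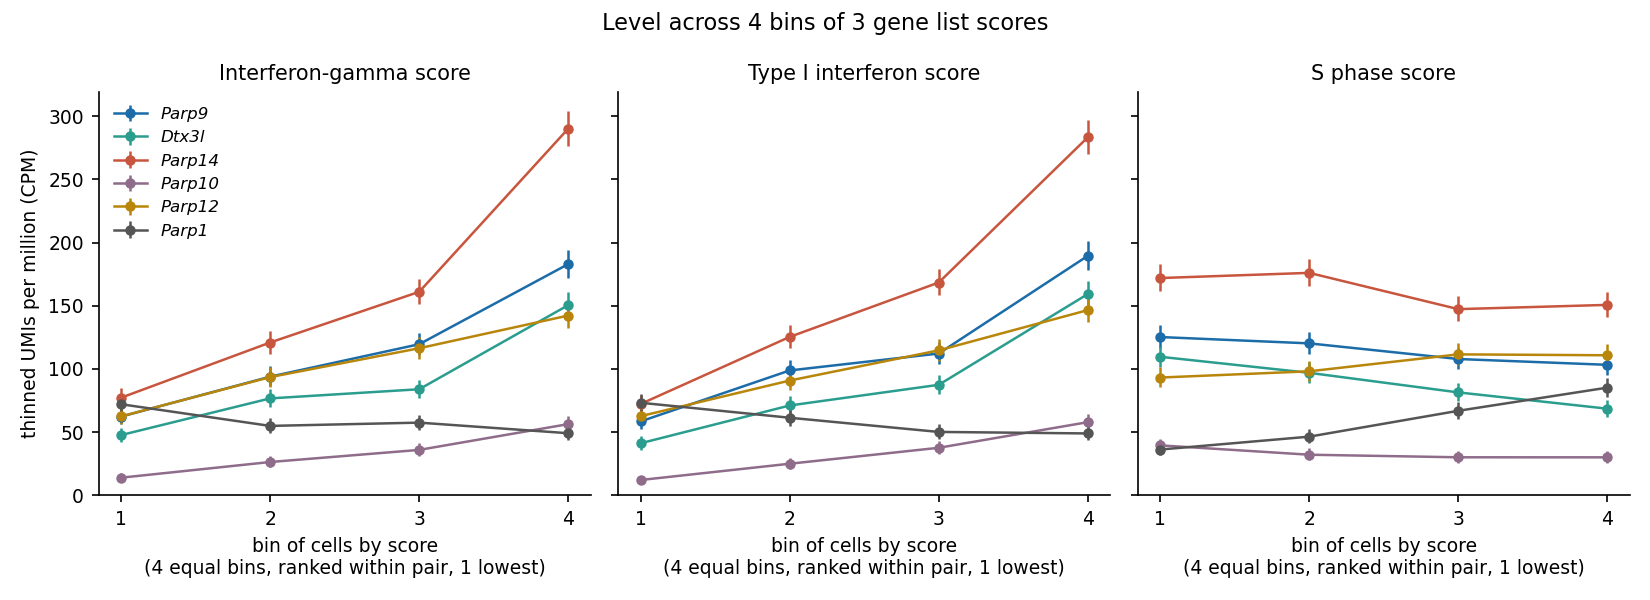
Level in CPM after thinning (y axis, with exact 95% Poisson intervals) of the 6 genes in 4 bins of cells ranked within their hashtag pair by each of 3 scores (x axis). Parp14 reaches 290 CPM in the top interferon-gamma bin and Parp1 is at 49.1 CPM there, whereas by S phase score Parp1 goes from 36.2 to 85.2 CPM.

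Parp1 followed genes of DNA replication. It had r = 0.304 with the S phase score (rank 412 from the top among 11060 genes), positive in 15 of 15 pairs (0.0673 to 0.465), and went from 36.2 to 46.4, 66.9 and 85.2 CPM over its bins, a ratio of 2.35 (2.00 to 2.77). Its r with the G2/M score was 0.165. Dtx3l had r = -0.170 with the S phase score and went from 110 to 68.6 CPM, a ratio of 0.625 (0.551 to 0.709), though 5 of 15 pairs went up. Parp9 (r = -0.0574), Parp10 (r = -0.0576) and Parp14 (r = -0.0375) lay closer to 0 and Parp12 was slightly positive (r = 0.0867, and 0.118 with the G2/M score).

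The number of UMIs in a cell moved with the same measures. Before thinning, Parp1 stood at 44.6 CPM in the shallowest of 4 depth bins and 84.0 CPM in the deepest, while Dtx3l went from 111 to 68.8 CPM, Parp10 from 43.5 to 25.4 CPM and Parp14 from 201 to 139 CPM. Parp9 went from 136 to 101 CPM and Parp12 stood at 101 and 105 CPM. In thinned cells, r with the log of the original UMI number was 0.560 for the S phase score and -0.254 for the interferon-gamma score. With that number held fixed, the partial r with the interferon-gamma score was 0.541 for Parp14, 0.463 for Parp9, 0.432 for Dtx3l, 0.384 for Parp12, 0.344 for Parp10 and -0.0550 for Parp1. The partial r with the S phase score was 0.214 for Parp1 and -0.109 for Dtx3l. The interferon-gamma values of the 5 interferon-linked genes thus changed by little with depth held fixed. Both values of Parp1 and the S phase value of Dtx3l became smaller in size.

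Among themselves, the 3 neighbours on chromosome 16 had the highest r within pairs. The value was 0.438 for Parp9 with Parp14, 0.427 for Dtx3l with Parp14 and 0.332 for Parp9 with Dtx3l. Parp14 was the gene with the fourth highest r for both Parp9 and Dtx3l, whereas Dtx3l ranked 29 of 11059 for its binding partner Parp9. Other pairings of the 5 genes had r from 0.184 (Parp10 with Parp12) to 0.290 (Parp12 with Parp14). Few UMIs per cell limit the size of r, and the mean was 0.620 thinned UMIs for Parp10 against 3.05 for Parp14. By rank, the other interferon-linked genes stood from 17 (Dtx3l) to 95 (Parp12) for Parp10. For Parp12 they stood from 18 (Parp14) to 92 (Parp10). The ranks thus do not set Parp9 with Dtx3l apart from all other pairings. Parp1 had r from -0.0672 to 0.0175 with the other genes.

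**Figure D4:**
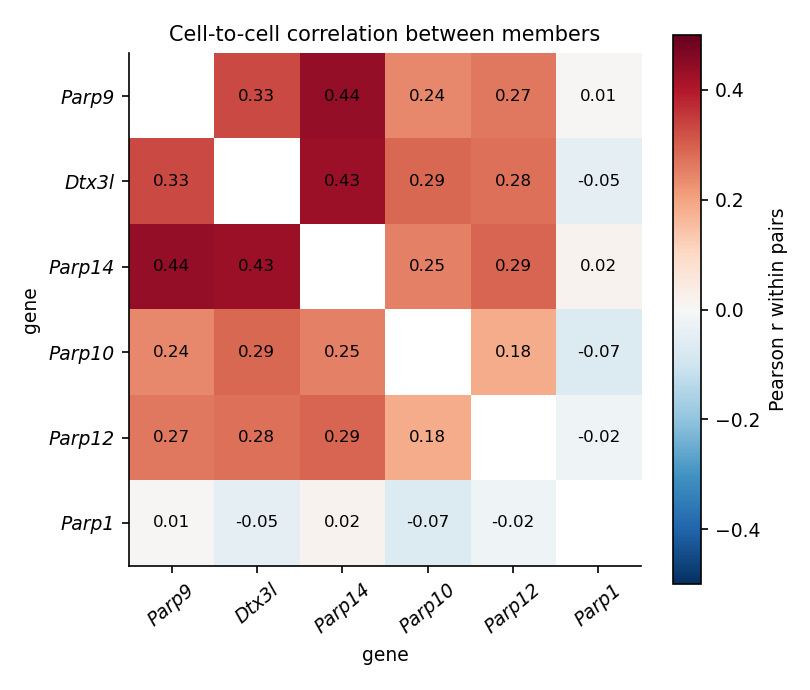
Pearson r within hashtag pairs over 1185 thinned cells for each pairing of the 6 genes (both axes list the genes, colour and number give r). Parp9 with Parp14 is highest at 0.438 and the row of Parp1 stays between -0.0672 and 0.0175.

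After thinning, 24.4% of 1328 cells (exact 95% binomial interval 22.1 to 26.8%) had a UMI of all 5 interferon-linked genes and 3.39% (2.48 to 4.51%) had none. The variance over the mean of thinned UMIs within pairs, which is 1 for pure counting noise, grows with the mean count and so sets no order between genes. It was 3.37 for Parp14, 1.90 for Dtx3l, 1.77 for Parp9, 1.49 for Parp12, 1.33 for Parp10 and 1.33 for Parp1. A single cell held up to 30 thinned UMIs of Parp14. The ratio of Parp9 to Dtx3l UMIs ranged from 1.23 to 2.00 over the 18 pairs, and that of Parp14 to Parp9 from 0.828 in HTO1-HTO3 to 1.81 in HTO1-HTO9.

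The genes with the highest r to each member within pairs were mostly known interferon-stimulated genes. For Parp9 they included Gbp7 (r = 0.466), Ifit3 (0.459), Parp14 and Oasl2 (0.433). For Dtx3l they included Ifit1 (0.448), Ifit3 (0.445), Parp14 and Trim30a (0.403), so that Ifit3 and Parp14 stood in both sets. Parp14 was nearest to Ifit1 (0.510), Gbp7 (0.502), Ifit3 (0.494), Iigp1 (0.487) and Gm4951 (0.468), the latter pair being immunity-related GTPase genes.

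Parp10 was nearest to Usp18 (0.364), a protease that removes ISG15 from proteins, Ifit3 (0.342), Isg15 (0.336), Ifit3b (0.334) and Ifit2 (0.325). Parp12 was nearest to Rnf213 (0.392), Trim30a (0.387), Gbp7 (0.370), Usp18 (0.357) and Isg15 (0.353). Parp1 was nearest to Ncl (0.340) and Npm1 (0.274), both nucleolar proteins, and to Nap1l1 (0.303) and Supt16 (0.278), both histone chaperones, and Serbp1 (0.276). At r of at least 0.3 there were 63 genes for Parp14, 49 for Parp9, 45 for Dtx3l, 14 for Parp12, 11 for Parp10 and 2 for Parp1. Parp10 had no UMI in 59.0% of thinned cells, which limits its r, so these counts set no order between genes.

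Among the 11 other genes of the PARP family, 1 reached 0.3 with each interferon score. Of all genes, 1.37% did so with the interferon-gamma score and 1.42% with the type I score. Parp11, which attaches single ADP-ribose units, had r = 0.382 with the interferon-gamma score and 0.420 with the type I score, and was the only 1 of the 11 at 0.3 or above. Parp3, an enzyme of DNA break repair, lay just under with r = 0.294 and ranged from 12.6 to 61.5 CPM over the pairs, a ratio of 3.79 with 5 CPM added. Zc3hav1, the antiviral zinc finger protein ZAP, had r = 0.237 with the interferon-gamma score and 0.293 with the type I score. The lowest values were those of Tiparp (r = -0.0522) and Parp16 (r = -0.0516), and the median of the 11 was 0.0485. Parp16 (2.99 CPM), Parp6 (5.36 CPM) and Parp4 (12.5 CPM) had few UMIs per cell, which limits the size of their r.

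**Figure D5:**
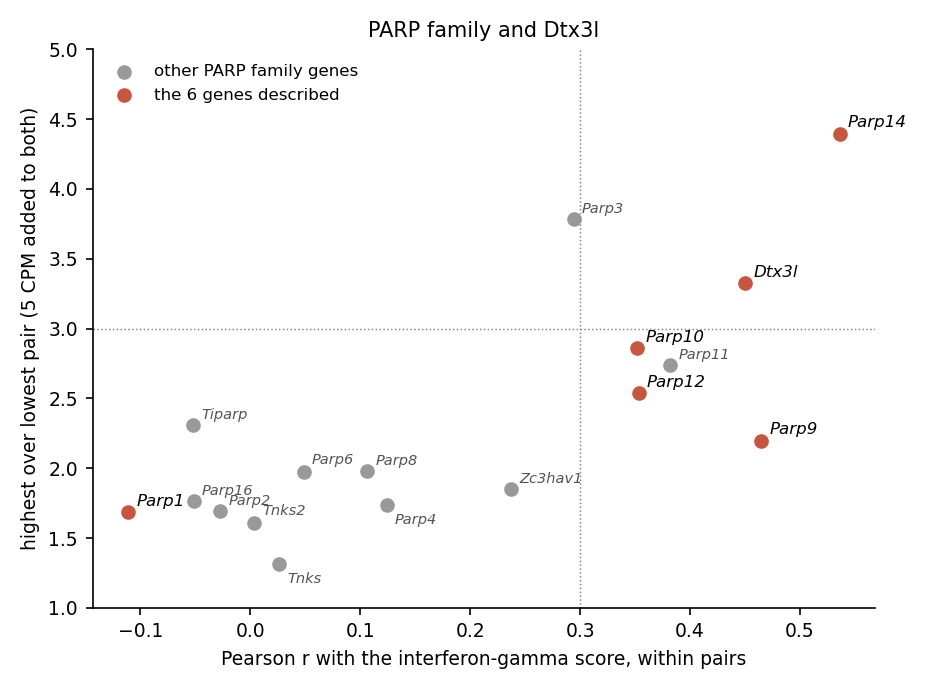
Each point is a gene: r with the interferon-gamma score within pairs (x axis) and ratio of the highest to the lowest hashtag pair with 5 CPM added to both (y axis), for the 6 genes described and 11 others of the PARP family. Dotted lines mark 0.3 and 3-fold. Parp14 and Dtx3l pass both, Parp3 passes only the ratio, and Parp1 lies at the lower left.

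Genes that act on the same chemistry were read next, and with 1.37% of all genes at 0.3 a count of 0 in lists this short sets none of them apart. Of 6 measured genes that remove ADP-ribose, none reached 0.3 with either score, and their median r with the interferon-gamma score was -0.0248. The highest were Adprh (0.0348), which cleaves ADP-ribose from arginine, and Parg (0.00486), which cuts chains, and the lowest were Oard1 (-0.0737) and Adprhl2 (-0.0711). Of 13 genes of NAD supply and use, 7 were abundant enough to be read and none reached 0.3. Nampt, the rate-limiting enzyme that recycles nicotinamide to NAD+, came highest (0.185), ahead of Nmrk1 (0.0764), and Nmnat3 (-0.0425) and Sirt1 (-0.0262) came lowest. Nadsyn1 ranged from 1.21 to 33.0 CPM over the pairs with r = -0.0168.

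Of 8 measured Deltex genes and partners of PARP1 in repair, none reached 0.3 with either interferon score. Dtx3, the relative of Dtx3l, had r = 0.132 with the interferon-gamma score, followed by Chd1l (-0.000837), and Dtx1 had no UMI in the 1461 cells, where 3 UMIs would be 0.0439 CPM. Hpf1, the cofactor that directs PARP1 to serine residues, had r = -0.117 with the interferon-gamma score and 0.416 with the S phase score. Lig3, a DNA ligase, had -0.0551 with the interferon-gamma score. Timeless, a replication fork protein that binds PARP1, had 0.414 with the S phase score. These S phase values are not adjusted for the UMI number of a cell.

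With the 92 cells that had at least 2 UMIs of immune markers left out, 5 of the 6 genes still reached 0.3 with both interferon scores, among them Parp14 at 0.540 and Parp9 at 0.465 with the interferon-gamma score.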

How the data were processed

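The authors deposited whole-number UMI counts of genes and hashtags per barcode, without normalization. Per the file headers it comes from Cell Ranger 6.1.2, while per the submitters' processing notes it comes from Cell Ranger 2.1.1 with GRCm38. The filter behind the barcode list is not given in the sources used here.

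Hashtag limits were the 0.99 quantile of a negative binomial fitted to the background cluster of each tag (k-means, 11 clusters, on log-ratio values of barcodes with at least 1000 UMIs, top 0.5% removed). A cell with exactly 2 tags was given that pair where 10 or more cells had it. Levels are summed UMIs over all gene UMIs, with exact Poisson intervals (95%), shares have Clopper-Pearson intervals, and a count of 0 was read as up to 3. Correlations are Pearson's r of log counts per 10000 after thinning (seed 1), with pair means subtracted. Genes seen in 5% of cells or more were read, and r of at least 0.3 or 3-fold was the limit. The code was checked on simulated counts (Python 3.11.15, numpy 2.4.6, scipy 1.17.1, scikit-learn 1.9.0). Partial r holds 1 other measure fixed.

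The 6 genes, gene lists, limits and rules were chosen with earlier results of these data known. Genes named beside the 6 are the 5 with the highest r to each, without ribosomal protein and mitochondrial genes, and the 2 highest and 2 lowest of each gene list in r with the interferon-gamma score, plus genes a sentence turns on. One gene that this rule names is not reported here. The symbols Adprs, Mx1 and Mx2 were not matched.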

Additional observations from a re-analysis of the deposited data

How the results depend on the processing

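The number of the 6 genes with r of at least 0.3 was 5 with the type I score under all 11 alternatives and 5 with the interferon-gamma score under 10 of 11, the exception being thinning to 10000 UMIs (3 genes). Of the 11, 4 could not lower a count: 3 (1000 UMIs, 10000 UMIs, barcodes with 3 or more tags kept) used the same 1185 cells, and a limit of 0.2 can only keep or raise it. Leaving out each hashtag pair in turn left both counts at 5. Of the 18 pairs, 3 had under 20 thinned cells and enter no within-pair r, so leaving them out could not change either count. The number with a 3-fold range over pairs was 2 but became 0 with pairs of at least 50 cells and 3 with 1 CPM added. Over the 18 settings that leave out a pair it ran from 0 (without HTO1-HTO3) to 2. Among all genes, the limit of 0.2 in place of 0.3 gave 313 for the interferon-gamma score and 278 for the type I score, against 152 and 157. Genes with a 3-fold range numbered 761, became 197 with pairs of at least 50 cells and 3256 with 1 CPM added, and ran from 540 to 762 without 1 pair. The cause of these shifts was not tested beyond what each setting changes by construction. No r with an interferon score changed sign in any setting, those of Parp1 included. Levels and ratios cannot change direction by construction. Of single-gene values, 167 of 168 with each interferon score stayed within 1 SD of the pairs' r, 157 of 162 ratios and 123 of 150 levels stayed within their counting interval. The 3 alternatives and 3 left-out pairs named above used the same thinned cells and left every r unchanged by construction. Leaving out a pair that is neither highest nor lowest likewise leaves a ratio unchanged. The SD is a wide limit, from 0.0973 (Parp9, type I score) to 0.197 (Parp12, interferon-gamma score). Thinning with another seed was added after seeing the data. Depth limits these values: thinning to 10000 UMIs took r with the interferon-gamma score from 0.450 to 0.329 for Dtx3l and from 0.352 to 0.280 for Parp10. No paired analysis was possible because the data are 1 pooled sample and no test was made.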
